A study of Mus musculus with 2 samples.

Results

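Ccl2, Ccl7, Ccl8 and Ccl12 encode small secreted proteins of the monocyte chemoattractant family. They were taken by name, as ligands linked to the receptor Ccr2, and are 4 of the 27998 genes listed for both libraries and of the 17077 genes with at least 1 unique molecular identifier (UMI, a tag that marks 1 captured transcript) in a kept cell. All 4 were detected in both libraries. Macrophages of the mouse small intestine had been sorted and loaded on the 10x Genomics droplet platform (3′ v2 chemistry), which tags and reads the 3′ end of each captured transcript in single cells. The wild-type library came from male C57BL/6J mice of the supplier Janvier and was run over 2 lanes, which are technical and not replicates. The other library came from Ccr2-/- mice (JAX strain 004999, bred in-house), for which the labels used here give no sex. In each genotype 3 to 4 intestines were combined, and the sort took live CD45+ cells that carried CD11b, MHCII and CD64 and lacked CD3, TCRb, B220, SiglecF, Ly6C and Ly6G. With 1 library for each genotype there is no replicate, so no test between genotypes was possible, and genotype, mouse source and library cannot be told apart. All intervals below are 95% intervals that cover counting error only.

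After removal of cells with fewer than 200 genes or more than 10% mitochondrial UMIs, 2612 of 2774 knockout cells and 3016 of 3054 wild-type cells were kept, of which 2109 lay in lane 1 and 907 in lane 2. The median depth was 2439 UMIs in knockout cells and 6129 in wild-type cells. Shares of cells are therefore given for cells thinned at random to 1000 UMIs, which left out 196 knockout cells and 1 wild-type cell. At least 3 of 10 macrophage markers, and no lymphoid, fibroblast or endothelial signature, marked 95.3% of the kept cells in the knockout and 97.7% in wild type. Cells with a lymphoid signature also held these markers, at 5310 CPM (UMIs per 1000000 UMIs) in the knockout and 20620 CPM in wild type. Passing this gate is therefore weak evidence of what a single cell is. Ccr2 itself stood at 331 CPM (UMIs per 1000000 UMIs of the kept cells) in wild type and 6.88 CPM in the knockout, and the labels used here do not say which part of the gene is deleted. The lanes shared 5 barcode sequences, and the genotypes shared 6.

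Chemokines of this family are released by macrophages, fibroblasts and endothelium and bind receptors on circulating leukocytes. Ccl2, Ccl7 and Ccl12 are ligands of Ccr2, the receptor through which Ly6C-high monocytes leave the bone marrow and enter tissue, where in the intestine they continually renew many of the macrophages. Mouse Ccl8 has been described as a ligand of Ccr8, a receptor of some T cells. Transcription of several of these genes is known to be quickly induced by NF-kB and by stress signals, the same circumstances in which Fos, Egr1 and Dusp1 are induced.

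The 4 genes lie together on chromosome 11 of the mouse, all on the plus strand, within 81229 bases (mm10/GRCm38, GENCODE M21 annotation). Ccl2 (ENSMUSG00000035385) lies at chr11:82035571-82037453 and Ccl7 (ENSMUSG00000035373) at chr11:82045712-82047525. The eosinophil attractant Ccl11 comes next, followed by Ccl12 (ENSMUSG00000035352) at chr11:82101845-82103400 and Ccl8 (ENSMUSG00000009185) at chr11:82115185-82116799. Each is a protein-coding gene of 3 exons. The family is named for 2 adjacent cysteines near the start of the mature protein. The stretches below show that pair of codons in capitals, with 45 bases of exon 2 from each gene, because they are the feature that makes these genes 1 family and show how far the coding sequences have diverged around it (chr11:82036497-82036541, chr11:82046529-82046573, chr11:82116047-82116091 and chr11:82102625-82102669, plus strand).
Ccl2: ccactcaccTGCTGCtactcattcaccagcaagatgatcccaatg
Ccl7: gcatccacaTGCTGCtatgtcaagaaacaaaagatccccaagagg
Ccl8: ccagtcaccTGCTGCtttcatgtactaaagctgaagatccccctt
Ccl12: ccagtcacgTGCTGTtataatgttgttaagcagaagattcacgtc

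Between pairs of members the coding sequences were 64.6% (Ccl7 and Ccl8) to 70.8% (Ccl8 and Ccl12) identical. The longest run of bases shared by 2 transcripts was 23, between Ccl2 and Ccl7, and the shortest of these maxima was 11, between Ccl7 and Ccl12.

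RefSeq promoter sequences (GRCm38.p6) were matched for 2 of the 4 genes, Ccl12 and Ccl8. The 120 bases before the start of each are printed because these neighbours differed in their ratio between genotypes (given below), with a TATA box (TATAAAA, plus strand) in capitals (chr11:82101725-82101844 and chr11:82115065-82115184, plus strand).
Ccl12: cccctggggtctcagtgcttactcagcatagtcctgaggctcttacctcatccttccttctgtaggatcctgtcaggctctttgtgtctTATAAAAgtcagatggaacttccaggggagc
Ccl8: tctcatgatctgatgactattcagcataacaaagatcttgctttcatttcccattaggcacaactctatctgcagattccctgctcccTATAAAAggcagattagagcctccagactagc

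The box began 31 bases before the start of Ccl12 and 32 bases before that of Ccl8. TATAAAA on the plus strand was held by 3.27% of the 32817 promoter windows of the same 300 bases. The AP-1 site TGANTCA (N, any base; either strand), which 7.81% of all windows hold, was not among the letters of these 2 windows.

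Ccl2 and Ccl7, the ligands of Ccr2 that lie side by side, stood several-fold higher in the knockout than in either wild-type lane. Ccl12, the third ligand of Ccr2, was higher by less than 2-fold, and Ccl8 was slightly lower. All levels are CPM over the kept cells of a library or lane. Since 3′ chemistry counts transcript ends, they are not divided by length.

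Ccl2, the main monocyte attractant, stood at 696 CPM (677 to 716) in the knockout. It stood at 166 CPM (160 to 173) in lane 1, 136 CPM (127 to 145) in lane 2 and 157 CPM over wild type. The log2 ratio (knockout over wild type, with 1 CPM added to each level) was 2.14 (2.07 to 2.20), a 4.40-fold higher level. The lanes differed from each other by -0.29 (lane 2 over lane 1), which is a technical spread and not one between samples. At 1000 UMIs, 30.3% (28.5 to 32.2) of knockout cells and 12.7% (11.6 to 14.0) of wild-type cells had a Ccl2 UMI, against 43.0% and 32.0% before thinning.

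Ccl7, which also acts on other CC receptors, was the most abundant of the 4 in the knockout at 1201 CPM (1176 to 1226). In wild type it stood at 197 CPM (190 to 205) in lane 1, 161 CPM (152 to 172) in lane 2 and 187 CPM together. Its log2 ratio was 2.68 (2.62 to 2.73), or 6.40-fold, the widest gap of the 4 genes. At 1000 UMIs it was found in 38.6% (36.7 to 40.6) of knockout cells and 12.4% (11.3 to 13.7) of wild-type cells. Before thinning the shares were 57.0% and 32.3%. Positive cells also held more of it, with a mean of 3.32 Ccl7 UMIs in 1000 in the knockout and 1.75 in wild type.

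Ccl12 stood at 562 CPM (544 to 579) in the knockout, 308 CPM (299 to 317) in lane 1 and 312 CPM (298 to 326) in lane 2. The log2 ratio was 0.86 (0.80 to 0.92), or 1.82-fold, against 0.02 between the lanes. Its share of cells depended on depth. At 1000 UMIs it was 21.4% (19.7 to 23.0) in the knockout and 17.1% (15.8 to 18.5) in wild type, whereas before thinning it was 33.2% and 41.5%. The order before thinning goes against the CPM, so no order is read from it.

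Ccl8 stood at 273 CPM (262 to 286) in the knockout, 309 CPM (300.4 to 319) in lane 1 and 331 CPM (317 to 346) in lane 2. The log2 ratio was -0.21 (-0.28 to -0.13). Single cells weigh on this gene, since the cell with most Ccl8 held 318 UMIs in lane 2, 237 in lane 1 and 78 in the knockout. Without those 3 cells, a comparison chosen after the data were seen, the ratio was -0.14. At 1000 UMIs 12.5% (11.2 to 13.8) of knockout and 14.4% (13.2 to 15.7) of wild-type cells had a Ccl8 UMI, with overlapping intervals. Before thinning the shares were 21.1% and 35.4%.

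**Figure D1:**
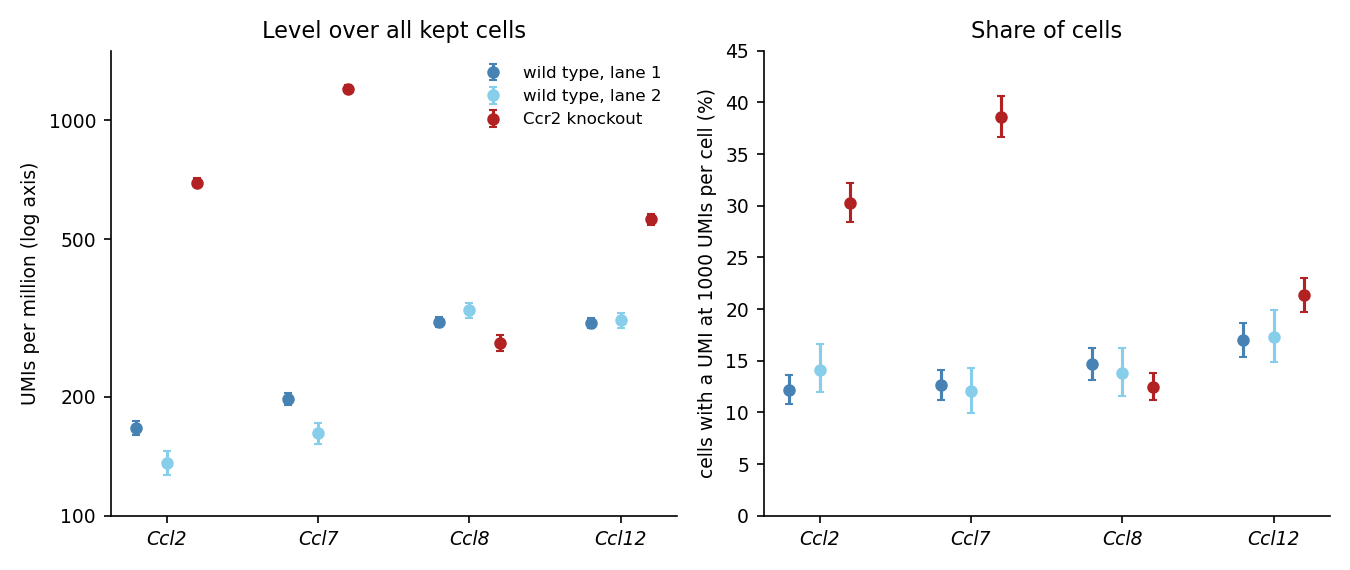
Level of each gene in CPM (left, log axis) and share of cells with a UMI at 1000 UMIs per cell (right, percent) in wild-type lane 1, wild-type lane 2 and the knockout, with 95% counting intervals as bars. Ccl2 and Ccl7 of the knockout lie far above both lanes (696 and 1201 CPM), while Ccl8 of the knockout lies slightly below them (273 CPM).

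Of the 7401 genes with a mean of at least 10 CPM, 7.43% were at least 2-fold higher in the knockout than in each lane and 2.54% were at least 2-fold lower. Among the 4 members, 2 (Ccl2 and Ccl7) met the first criterion and 0 met the second. With 4 genes, this count is a description. The median log2 ratio was 1.5 for the members and 0.18 for all genes tested. From the highest ratio down, Ccl7 ranked 43, Ccl2 82, Ccl12 912 and Ccl8 5416 of 7401. A higher ratio than that of Ccl7 was found for 0.567% of genes, and a higher ratio than that of Ccl8 for 73.2%. Median-of-ratios scaling moved all log2 ratios by 0.19 downwards and left the 4 directions as they were.

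Summed over the 4 genes, the knockout held 2732 CPM (2694 to 2770), lane 1 981 CPM (965 to 997) and lane 2 940.4 CPM (916 to 965). The mix differed as well as the total. Ccl7 made up 43.9% of the summed UMIs in the knockout, Ccl2 25.5%, Ccl12 20.6% and Ccl8 10.0%. In wild type Ccl8 and Ccl12 made up 32.6% and 31.9%, and Ccl7 and Ccl2 19.3% and 16.3%. The leading pair was thus Ccl7 with Ccl2 in the knockout and Ccl8 with Ccl12 in both wild-type lanes.

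**Figure D2:**
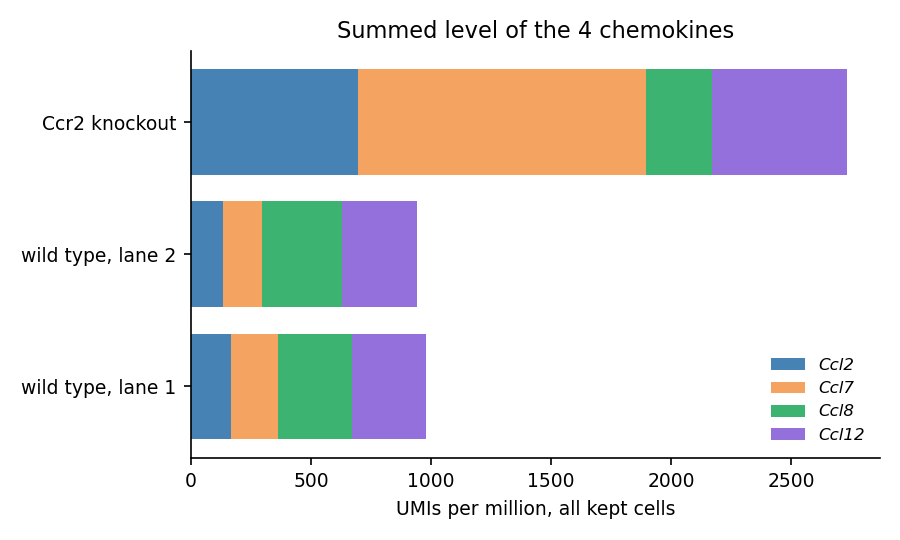
Summed level of the 4 genes in CPM over all kept cells, as bars from 0, divided by gene, for each wild-type lane and the knockout. The knockout bar reaches 2732 CPM against 981 and 940.4 CPM in the lanes, and its added length is mostly Ccl7 and Ccl2.

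Nearly all of these transcripts were in cells with a macrophage signature. The macrophage gate held 98.3% to 99.0% of the Ccl7 and Ccl2 UMIs of the knockout and 98.6% to 99.3% of the UMIs of the 4 genes in wild type. It also held 95.3% of the kept knockout cells and 97.7% of the kept wild-type cells. The UMI shares lie close to these, so they are not read as particular to the 4 genes. Within that gate alone the log2 ratios were 2.18 for Ccl2, 2.71 for Ccl7, 0.91 for Ccl12 and -0.18 for Ccl8. Fibroblasts are another known source of Ccl2 and Ccl7. The 10 fibroblast markers summed to 302 CPM in the knockout and 34.4 CPM in wild type (42.0 and 16.4 CPM in the lanes), with none of the 10 at 0 in either library, and the 10 endothelial markers summed to 227 and 56.3 CPM, also with none at 0. The 26 knockout cells with a fibroblast signature held 789 CPM of Ccl7 and 206 CPM of Ccl2, below the macrophage gate (1248 and 729 CPM), and 1.05% of the Ccl7 UMIs of the library.

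Cells with a lymphoid signature were read for background. Doublets were not removed, and how far they enter this set was not tested. In the 41 knockout cells with a lymphoid signature (median 2596 UMIs) Ccl7 stood at 272 CPM, 21.8% of its level in the macrophage gate, and Ccl2 at 116 CPM, or 15.9%. Ccl12 stood at 19.6% and Ccl8 at 9.54% of the macrophage level, while the 10 macrophage markers summed to 20.2%. In wild type 50 such cells had a median of 9661 UMIs, against 6085 in the macrophage gate. Their values were 34.5% for Ccl2, 48.7% for Ccl7, 20.3% for Ccl8, 30.7% for Ccl12 and 57.5% for the macrophage markers. Given that depth and marker level, the wild-type values are not read as a measure of free RNA. The 4 chemokines were thus found in lymphoid-marked cells to about the extent of macrophage markers or less. A Ccl7 UMI at 1000 UMIs was found in 26.8% (14.2 to 42.9) of lymphoid-marked against 39.3% (37.3 to 41.3) of macrophage-gated knockout cells, and a Ccl2 UMI in 4.88% (0.596 to 16.5) against 31.5% (29.6 to 33.4). For Ccl7, a single UMI in a knockout cell is therefore weak evidence that this cell made it. How much of the Ccl7 gap between genotypes is free RNA was not tested.

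The UMIs were unevenly spread over cells. In the knockout 50% of the UMIs were held by 178 of 2612 cells for Ccl2, 164 for Ccl7, 61 for Ccl12 and 53 for Ccl8. In wild type the same share was held by 152 of 3016 cells for Ccl2, 113 for Ccl7, 121 for Ccl12 and 72 for Ccl8. Ccl8 was thus the gene held by the fewest cells in both libraries.

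Which macrophages carried the 4 genes was read from Cd163, Folr2, Timd4 and Ccr2. Cd163, a scavenger receptor for haemoglobin complexes, and Folr2, a folate receptor of perivascular macrophages, marked cells with higher levels of all 4 genes over each library. Timd4, a receptor for apoptotic cells that marks long-lived resident macrophages, went with lower Ccl2 and Ccl7 in the knockout. Ccr2, which marks cells recently derived from monocytes, went in wild type with lower Ccl8. A marker was called present when 1 of its UMIs was left at 1000 UMIs, so cells without it include cells in which it was missed. Wild-type cells with Cd163 were shallower than those without (median 4306 against 6202 UMIs) and those with Ccr2 deeper (6967 against 5958 UMIs), and the part of depth in the differences was not tested.

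Cd163 was present in 303 knockout and 116 wild-type cells. In the knockout the cells with Cd163 held 2359 CPM of Ccl7 against 1025 CPM without, 1426 against 583 CPM of Ccl2, 993 against 507 CPM of Ccl12 and 671 against 223 CPM of Ccl8. In log2 these differences were 1.20 for Ccl7, 1.29 for Ccl2, 0.97 for Ccl12 and 1.59 for Ccl8. In wild type they were 1.27 for Ccl7 (431 against 179 CPM), 1.03 for Ccl2 (313 against 152 CPM) and 1.5 for Ccl12 (828 against 292 CPM), positive in each lane. At least 2-fold higher in cells with Cd163 were 3 of the 4 members in the knockout, where 2.20% of 7551 genes were. Over both wild-type lanes together all 4 were, where 4.06% of 7166 genes were. In lane 1 alone Ccl2 was below 2-fold (0.84, with 1.67 in lane 2). Both counts rest on single cells: without the cell with most UMIs of a gene in each library or lane, Ccl12 in the knockout was 1.03 in place of 0.97, which makes it 4 of 4, and Ccl8 in wild type 0.87 in place of 2.26, which makes it 3 of 4. None was 2-fold lower, where 3.39% and 2.78% of genes were. The Cd163-positive cells of the knockout, 12.5% of cells, held 24.1% of the Ccl2, 23.0% of the Ccl7, 20.3% of the Ccl12 and 28.2% of the Ccl8 UMIs, so most UMIs of each gene lay in cells with no Cd163 UMI. Within the knockout cells with 6 or more UMIs of Fos, Egr1 and Dusp1 in 1000 the Cd163 differences were 1.12, 1.07, 0.90 and 1.48 for Ccl2, Ccl7, Ccl12 and Ccl8, and with 3 to 5 they were 1.61, 0.73, 0.84 and 0.58. In wild type they were 0.94, 1.16, 1.40 and 2.60 with 0 such UMIs and 1.71, 1.81, 1.80 and 2.70 with 1 to 2. With 3 to 5, where 26 wild-type cells had Cd163, they were -0.19 (-0.82 to 0.38), 0.20 (-0.32 to 0.68), 0.34 (-0.06 to 0.71) and -0.34 (-0.86 to 0.13), so the wild-type difference was not seen in that class.

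Ccl8 in wild-type cells with Cd163 stood at 1358 CPM against 282 CPM without, but 2 cells held 50% of those UMIs. Without the cell with most Ccl8 in each lane the level was 515 CPM and the log2 difference was 0.87 in place of 2.26. In lane 1 it was 0.46 in place of 1.52, and in lane 2 it was 2.08 in place of 3.89, the latter over 24 cells. The direction was kept in both lanes, and the size of this difference in wild type rests on those cells.

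Folr2 was present in 29 knockout and 17 wild-type cells, so its values rest on few cells. Ccl7 stood at 3669 CPM (3271 to 4103) in the knockout cells with Folr2 and at 1149 CPM in those without. For Ccl2, Ccl12 and Ccl8 the levels with Folr2 were 1727, 1823 and 1525 CPM, against 667, 548 and 259 CPM without. Over wild type the log2 differences were 1.63 for Ccl2, 1.85 for Ccl7, 2.40 for Ccl12 and 4.74 for Ccl8, and each was positive in both lanes. In lane 2, where 5 cells had Folr2, 1 cell held 8 of their 10 Ccl2 UMIs. Without that cell their Ccl2 level was 94.1 CPM, below the 135 CPM of lane 2 cells without Folr2. The direction of Ccl2 in lane 2 thus rests on that cell. Ccl8 was found in 64.7% (38.3 to 85.8) of the 17 wild-type cells with Folr2 and in 14.1% of those without. The same cells with 237 and 318 Ccl8 UMIs lie in this set, and without them the wild-type difference was 3.35.

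Timd4 was present in 373 knockout and 103 wild-type cells. In the knockout the log2 difference between cells with and without Timd4 was -0.61 for Ccl7 (817 against 1243 CPM), -0.37 for Ccl2 (543 against 704 CPM), -0.51 for Ccl12 (413 against 590 CPM) and 0.04 for Ccl8 (281 against 273 CPM). None of the 4 was 2-fold apart, where 0.160% of 7497 genes were 2-fold higher and 1.47% 2-fold lower. In wild type the lanes pointed in opposite directions for Ccl8 (1.61 and -2.04) and for Ccl12 (0.75 and -0.81), so no direction is given for them (over both lanes Ccl8 was 1.07, where 2.59% of genes were 2-fold higher and 1.77% lower). The Ccl8 value of lane 1 was 0.16 without its highest cell. For Ccl2 and Ccl7 both lanes were negative, at -0.07 and -0.96 for Ccl2 and at -0.11 and -1.58 for Ccl7.

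Cd163 and Timd4 together separated the levels further in the knockout. The 248 cells with Cd163 and no Timd4 held 2432 CPM of Ccl7 and 1457 CPM of Ccl2. The 55 cells with both held 2040 and 1290 CPM, the 1795 cells with neither 1095 and 611 CPM, and the 318 cells with Timd4 and no Cd163 held 612 and 418 CPM. For these 2 genes the cells with Cd163 were highest whether or not Timd4 was found, and the cells with Timd4 alone were lowest. For Ccl12 the cells with Cd163 alone stood at 1094 CPM, those with both at 553 CPM (441 to 684) and those with neither at 527 CPM.

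Ccr2 was present in 619 wild-type cells. Ccl8 stood at 130 CPM (120 to 141) in them and at 369 CPM (359 to 378) in wild-type cells without a Ccr2 UMI, a log2 difference of -1.5, with -1.22 in lane 1 and -2.37 in lane 2. Ccl7 (140 against 200.1 CPM, -0.52) and Ccl12 (241 against 328 CPM, -0.44) were also lower in both lanes. The CPM of Ccl2 was not separated by Ccr2, at 163 against 156 CPM and 0.06 (-0.06 to 0.18). In thinned wild-type cells a Ccl2 UMI was found in 16.2% (13.3 to 19.3) with Ccr2 and 11.9% (10.6 to 13.2) without. That share was higher with Ccr2 in lane 1 (15.3% against 11.3%) and lane 2 (18.1% against 13.1%), with overlapping intervals within each lane. Of the members 1 of 4, Ccl8, was at least 2-fold lower in cells with Ccr2, where 1.56% of 7005 genes were, and 0 of 4 were 2-fold higher, where 0.542% were. Since 15 knockout cells had a Ccr2 UMI, the same split is not read in the knockout.

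**Figure D3:**
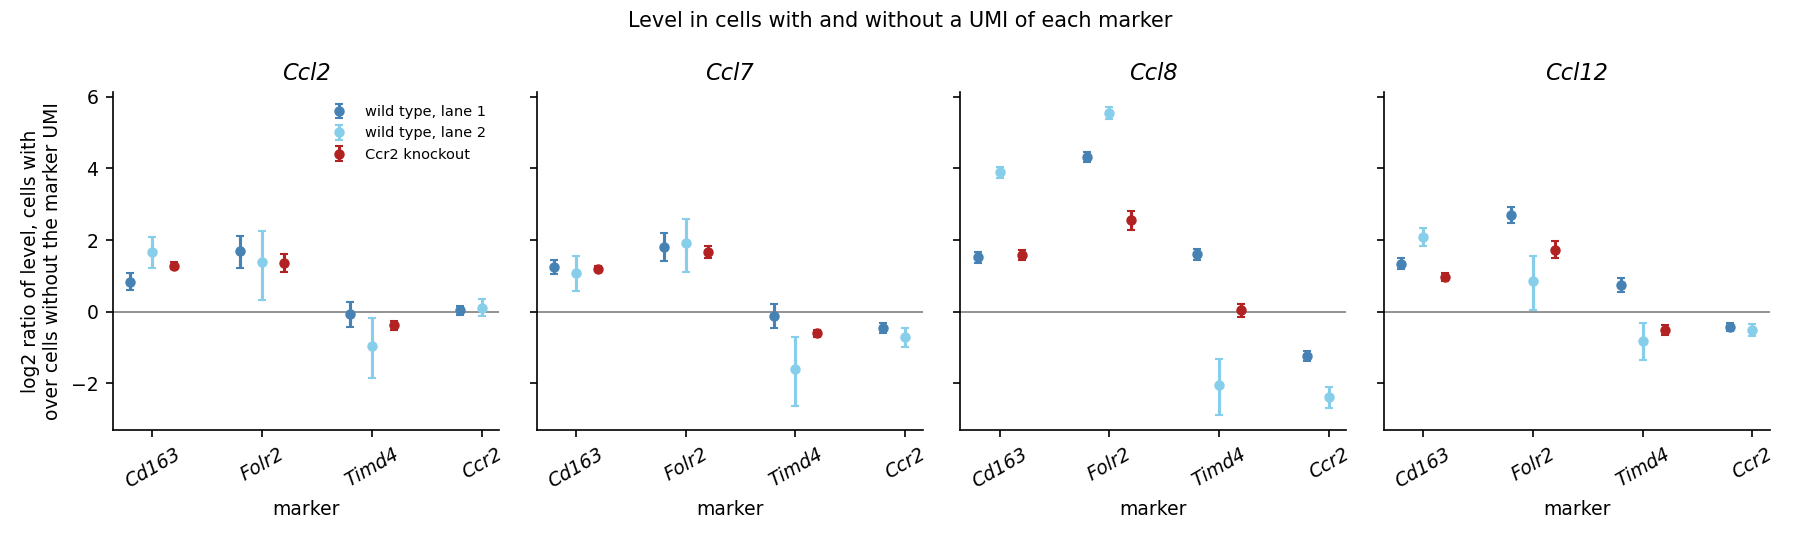
Log2 ratio of the level in cells with a UMI of a marker to that in cells without it, for each chemokine (panels), marker (horizontal axis) and library, with 95% counting intervals; the 15 knockout cells with Ccr2 are not drawn. Cd163 and Folr2 lie above 0 for all 4 genes, Ccr2 lies below 0 for Ccl8 in both lanes (-1.22 and -2.37), and the highest Ccl8 points of wild type rest on 2 cells with 237 and 318 UMIs.

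The gap between genotypes was recomputed within marker-positive cells, since Cd163 (149 against 34.8 CPM) and Timd4 (162 against 34.2 CPM) were themselves higher in the knockout, with Folr2 at 12.2 against 7.50 CPM. For Ccl7 the knockout stood above wild type by a log2 ratio of 2.45 in cells with Cd163, 2.50 in cells with Timd4 and 2.46 in cells with Folr2. For Ccl2 it was 2.19, 2.03 and 1.83. The gap of both genes thus lay close to that over all cells in each of the 3 sets. For Ccl12 the ratio to both lanes together was 0.26 (0.10 to 0.42) in cells with Cd163 and 0.02 (-0.21 to 0.25) in cells with Timd4. It was 0.79 in cells without Cd163 and 0.94 in cells without Timd4. With Cd163 the knockout level was 993 CPM, against 741 CPM in lane 1 and 1254 CPM in lane 2 (25 cells). With Timd4 it was 413 CPM, against 507 CPM in lane 1 and 179 CPM in lane 2 (29 cells). The knockout thus lay between the lanes in both sets, so no Ccl12 direction is given for them. For Ccl8 the ratio in cells with Cd163 was -1.02, and 0.38 without the highest cells, so its direction there rests on those cells. In cells with Timd4 it was -1.19, and 0.16 (-0.13 to 0.46) without the highest cells. In cells with Folr2 it was -2.29, and it stayed negative without them, at -0.89 (-1.21 to -0.59). In cells without a Ccr2 UMI of both libraries, read at full depth, the Ccl8 ratio was -0.83, the Ccl12 ratio 0.50 and the Ccl7 ratio 2.40.

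The relation to Fos, Egr1 and Dusp1 was examined because these immediate-early genes, which respond within minutes to stimulation, differed strongly between the libraries. Fos and Egr1 encode transcription factors, and Dusp1 a phosphatase that shuts off MAP kinases. Fos stood at 6169 against 1853 CPM, Egr1 at 1772 against 215 CPM and Dusp1 at 2829 against 426 CPM in knockout and wild type. The median knockout cell had 10 UMIs of the 3 genes in 1000 and the median wild-type cell 2, in both lanes. Of knockout cells 80.3% had 6 or more, 5.42% had 1 to 2 and 1.57% had none. Of wild-type cells 12.8% had 6 or more, 39.4% had 1 to 2 and 18.9% had none.

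Within the knockout, Ccl2 and Ccl7 were higher in the cells with more immediate-early UMIs. Ccl2 stood at 362 CPM in cells with 1 to 2 such UMIs, 336 CPM with 3 to 5, 450.4 CPM with 6 to 8, 702 CPM with 9 to 12, 874 CPM with 13 to 18 and 1352 CPM with 19 or more. Ccl7 stood at 760 CPM, 690 CPM, 804 CPM, 1358 CPM, 1464 CPM and 1882 CPM in the same classes. Both genes thus stood more than 2-fold higher in the highest of these classes than in the lowest. Cells of the upper classes were on average shallower, and the part of depth in these differences was not tested. Ccl12 went from 297 CPM with 1 to 2 to 668 CPM with 13 to 18 and 595 CPM with 19 or more. Ccl8 lay between 197 and 315 CPM in these classes with no steady order. In the 38 knockout cells with none of the 3 genes Ccl2 stood at 44.1 CPM (16.2 to 96.0) and Ccl7 at 176 CPM (113 to 263), while Ccl12 (566 CPM) and Ccl8 (522 CPM) were as high as in any class below 9 UMIs.

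In wild type, where few cells lie in the upper classes, 4 classes are compared. Ccl2 stood at 134 CPM with 0, 158 CPM with 1 to 2, 170 CPM with 3 to 5 and 167 CPM with 6 or more. Ccl7 stood at 186, 183, 188 and 201 CPM. These 2 genes stayed within a narrow range over the 4 classes. Split further, Ccl2 stood at 109 CPM (81.6 to 142) in the 88 wild-type cells with 9 to 12 and at 229 CPM (155 to 327) in the 31 cells with 13 to 18, and Ccl7 at 265 CPM (221 to 315) and 275 CPM (193 to 381). Ccl8 was lower in the cells with more immediate-early UMIs, at 392, 357, 271 and 135 CPM. Over the same 4 classes Ccl12 was also lower, at 391, 302, 281 and 262 CPM. Split further, Ccl12 had no steady order. It stood at 223 CPM (199 to 248) with 6 to 8, 436 CPM (379 to 498) with 9 to 12 and 99.3 CPM (52.9 to 170) with 13 to 18. With 9 to 12 it stood at 415 CPM in lane 1 and 526 CPM in lane 2, the latter over 19 cells.

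Cells with 6 or more were set against cells with 0 to 2. The former were on average shallower in both libraries, and the part of depth was not tested. In the knockout the log2 differences were 1.43 (1.21 to 1.65) for Ccl2, 1.07 (0.93 to 1.23) for Ccl7, 0.75 (0.55 to 0.95) for Ccl12 and -0.36 (-0.57 to -0.15) for Ccl8. In wild type they were 0.15 (-0.02 to 0.31) for Ccl2, 0.13 (-0.02 to 0.27) for Ccl7, -0.33 (-0.46 to -0.20) for Ccl12 and -1.44 (-1.61 to -1.27) for Ccl8. The lanes gave the same signs for each gene. At least 2-fold higher were 2 of 4 members in the knockout, where 7.63% of 7651 genes were, and 0 of 4 in wild type, where 1.27% of 7085 genes were. At least 2-fold lower was 1 of 4 in wild type, Ccl8, where 0.353% of genes were, and 0 of 4 in the knockout, where 5.82% were. Without the highest cells the wild-type Ccl8 difference was -1.25, with -1.34 and -1.06 in the lanes. Across single cells at 1000 UMIs, Spearman's rho with the summed immediate-early UMIs was 0.25 for Ccl2, 0.23 for Ccl7, 0.15 for Ccl12 and 0.05 for Ccl8 over 2416 knockout cells, and between -0.04 and 0.03 over 3015 wild-type cells. Those points share library, sort and depth, and values this small in sparse counts are not read as relations.

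**Figure D4:**
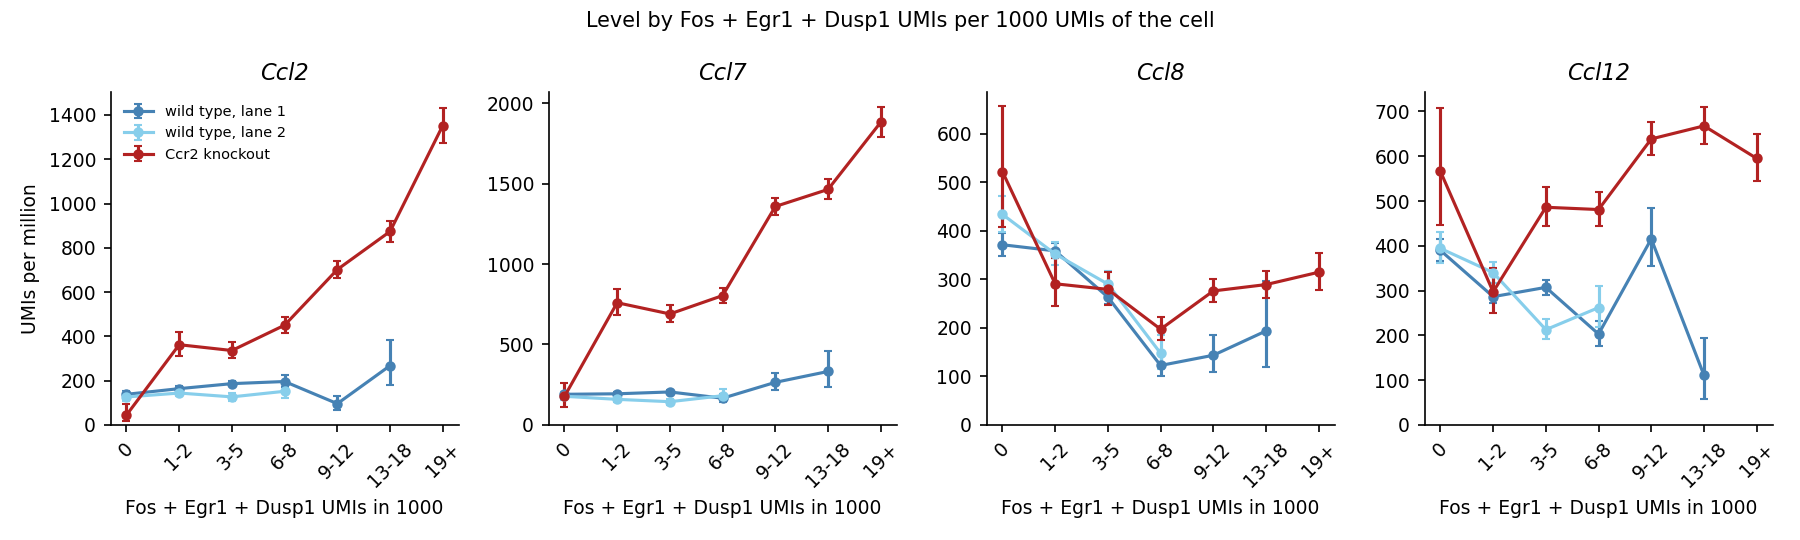
Level of each gene in CPM, from 0 on each panel's own axis, by class of Fos, Egr1 and Dusp1 UMIs in 1000, with 95% counting intervals; classes with fewer than 20 cells are not drawn. Ccl2 and Ccl7 of the knockout climb to 1352 and 1882 CPM in the class of 19 or more, while the wild-type points drawn reach at most 267 and 332 CPM, and wild-type Ccl8 is lower at 6 to 8 than at 0 in both lanes.

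Between genotypes at like immediate-early counts, Ccl7 and Ccl2 stayed higher in the knockout. Among cells with 6 or more the log2 ratios, knockout over wild type, were 2.72 (2.58 to 2.86) for Ccl7, 2.23 (2.08 to 2.39) for Ccl2, 1.19 (1.06 to 1.32) for Ccl12 and 0.97 (0.79 to 1.16) for Ccl8. Among cells with 3 to 5 they were 1.87, 0.98, 0.79 and 0.04 in the same order. Among cells with 1 to 2 they were 2.05, 1.19, -0.02 and -0.29. Ccl7 was thus at least 3.66-fold higher in all 3 classes and Ccl2 at least 1.97-fold, while Ccl12 was higher in the upper 2 classes and Ccl8 in the top class. At least 2-fold higher over all wild type were 3 of 4 members with 6 or more (7.49% of 7426 genes), 1 of 4 with 3 to 5 (8.84% of 7310) and 2 of 4 with 1 to 2 (10.3% of 7433). None of the 4 was 2-fold lower in these classes, where 3.16%, 3.83% and 3.89% of genes were. With 38 knockout cells at 0, the log2 ratio there was -0.08 (-0.72 to 0.51) for Ccl7, -1.58 (-2.98 to -0.47) for Ccl2, 0.53 (0.18 to 0.86) for Ccl12 and 0.41 (0.05 to 0.76) for Ccl8, so that 0 of 4 were 2-fold higher and 1, Ccl2, was 2-fold lower, where 16.4% and 13.6% of 7372 genes were.

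When the wild-type classes were given the knockout's class shares, the Ccl7 ratio went from 2.65 to 2.57, that of Ccl2 from 2.10 to 2.03 and that of Ccl12 from 0.86 to 1.06. The Ccl8 ratio went from -0.20 to 0.65, with 0.68 against lane 1 and 0.58 against lane 2, so its direction turned. The top class is open-ended, and the knockout's cells in it lie further up than wild type's. With 19 or more UMIs there were 393 knockout cells and 3 wild-type cells. With 7 classes in place of 4, chosen after the data were seen, the Ccl7 ratio was 2.21.

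The members were found in the same cells more often than in others. At 1000 UMIs, 57.9% of knockout cells and 38.7% of wild-type cells had a UMI of at least 1 of the 4, and 2.28% and 0.829% had all 4. Of knockout cells with Ccl2, 66.1% (62.6 to 69.6) also had Ccl7, against 26.7% (24.6 to 28.8) of those without Ccl2. In wild type these shares were 34.9% (30.1 to 39.9) and 9.16% (8.08 to 10.3). By Pearson's r across cells, these neighbouring genes were the most closely joined pair in both libraries. The loosest pair in the knockout was Ccl8 with Ccl12 (r 0.07), where 30.6% of cells with Ccl8 had Ccl12, against 20.05% of those without. In wild type 27.4% of cells with Ccl8 had Ccl12, against 15.3% of those without.

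**Figure D5:**
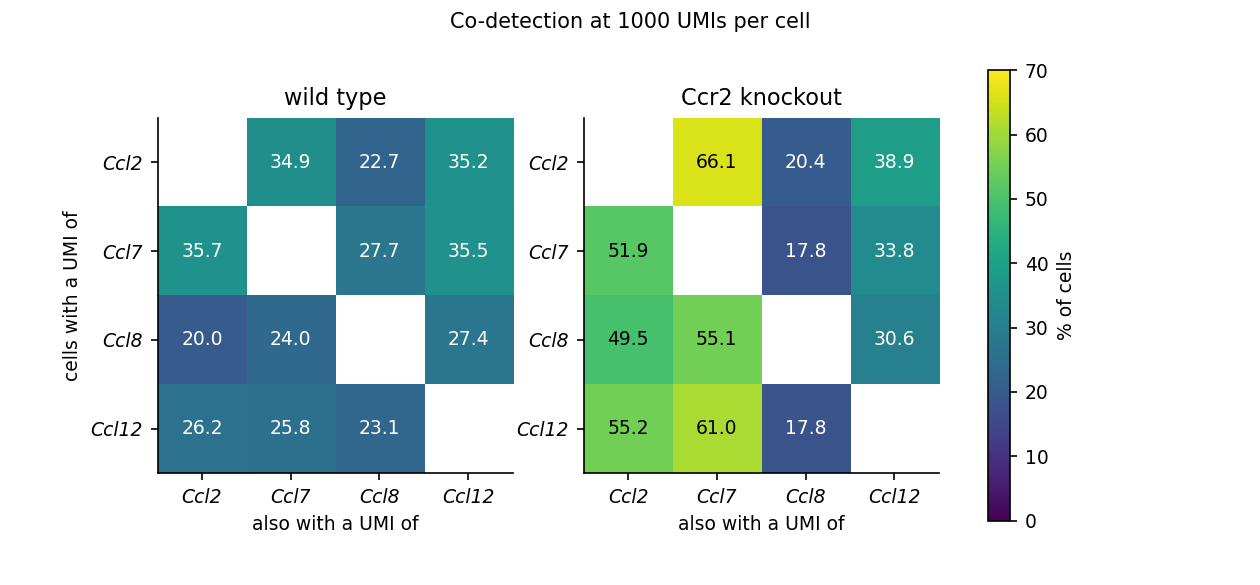
Percent of the cells with a UMI of the gene named at the left that also had a UMI of the gene named below, at 1000 UMIs per cell, in wild type and knockout. The Ccl2 row reaches 66.1% for Ccl7 in the knockout and 34.9% in wild type, and the Ccl8 column of the knockout holds the lowest values (17.8% to 20.4%).

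Genes whose pattern over cells was most like that of each member were ranked by the lower of the 2 libraries' Pearson r of log(1 + UMIs) at 1000 UMIs, among 2167 genes found in at least 5% of cells of each library. Ccl2 and Ccl7 were each other's closest gene (r 0.58 in the knockout over 2416 cells, 0.35 in wild type over 3015 cells). For Ccl2 there followed Ccl12 (0.37 and 0.23), Pf4, a platelet-type chemokine also made by macrophages (0.32 and 0.18), Ccl8 and Wwp1. For Ccl7 there followed Ccl12, Pf4, Ccl8 and Ehd4. For Ccl12 the closest were Ccl7 (0.36 and 0.25), Ccl2, Pf4, the protease inhibitor Cst3 and Fcrls, and for Ccl8 they were Ccl7 (0.17 and 0.19), Pf4, Itm2b, Ccl2 and the protease Ctsb. Cells of a library share its depth and free RNA, so these values describe the libraries. Pf4 itself differed little between genotypes (981 against 1105 CPM).

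Among the other chemokine ligands, 15 of 23 listed genes had at least 10 CPM, and 6 were at least 2-fold higher in the knockout than in each lane and 0 lower (background as above, 7.43% and 2.54%). Their median log2 ratio was 0.68, against 0.18 for all genes. They included Cxcl12, a stromal attractant of Cxcr4-bearing cells (43.1 against 4.74 CPM, 2.94), and Cxcl1 (72.0 against 9.38 CPM, 2.81) and Cxcl2 (1561 against 350.2 CPM, 2.15), attractants of neutrophils. Ccl4 stood at 4678 against 770 CPM (2.60). The remaining 2 were Ccl11, which lies between Ccl7 and Ccl12 on the chromosome (20.2 against 4.21 CPM), and Cxcl14 (34.7 against 14.2 CPM), both named after their values were seen. The fibroblast markers were also higher in the knockout (302 against 34.4 CPM), and which cells held these 6 ligands was not tested.

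Of 13 chemokine receptors 6 had enough counts, with 2 higher and 1 lower, where 7.43% and 2.54% of all genes tested were. The lower one was Ccr2, the gene knocked out (log2 ratio -5.40), and Cxcr4, the receptor of Cxcl12 (177 against 52.8 CPM, 1.73), and Ccrl2, an atypical chemoattractant receptor (237 against 108 CPM, 1.13), were the higher ones. Ccr8, described as the receptor of mouse Ccl8, had no UMI in either library, which allows up to 0.413 CPM in the knockout and 0.145 CPM in wild type (3 UMIs of each total).

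Of 25 genes of NF-kB signalling and cytokine induction 23 had enough counts, and 11 were higher and 0 lower, with a median of 1.0. Of all genes tested 7.43% were higher and 2.54% lower, with a median of 0.18. Highest were Tnfaip3, an inhibitor of NF-kB signalling (387 against 59.5 CPM), Nfkbiz (1173 against 230 CPM), the cytokine Tnf (123 against 29.4 CPM) and the inhibitor Nfkbia (764 against 205 CPM). Of 19 immediate-early genes 18 had enough counts and all 18 were higher, with a median of 1.77, led by Egr1 (3.03), Dusp1 (2.73), Ier3 (2.58) and Klf2 (2.06). Of 10 interferon response genes 1 was higher, Rsad2 (137 against 47.9 CPM), a share near that of all genes, and the median was 0.42. Of 14 genes of resident and perivascular macrophages 11 had enough counts and 7 were higher, with a median of 1.20, led by Timd4, Cd163, Gas6, a bridge to apoptotic cells (237 against 74.2 CPM), and the clotting factor F13a1 (61.1 against 21.1 CPM). Of 12 monocyte genes 6 had enough counts, with a median of -0.97, where Ccr2 and Ms4a4c (27.7 against 79.1 CPM) were lower. Ccr2 is the gene knocked out, so its fall is set by the design, and it enters this median. Fn1, encoding fibronectin (18.9 against 4.88 CPM), was higher, and which cells held it was not tested. Members of the lists were compared with both lanes by the same 2-fold criterion as the 4 chemokines, and these lists are not independent of earlier results of these data.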

How the data were processed

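Single-cell 3′ v2 libraries of sorted small intestinal macrophages were analysed, 1 per genotype. The files the authors deposited hold raw UMI counts for each gene in each cell. Cell Ranger 3.0.1 and mm10 are named in the submitters' processing notes, while the annotation used and the way cells were called are not given in the sources used here. Knockout cells totalled 7506405 UMIs and wild-type cells 20766579 (14614167 in lane 1 and 6152412 in lane 2). Per the labels, 1 wild-type sample was divided between the lanes, so they are technical.

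Levels are UMIs per 1000000 (CPM) over all kept cells with exact Poisson intervals, shares carry exact Clopper-Pearson intervals, and log2 ratios add 1 CPM to each level with an exact binomial interval on the 2 counts. PCR and capture make these counting intervals only. A gene was counted as at least 2-fold apart when it was so the same way against both lanes, among genes with a mean of at least 10 CPM. Contrasts between cells of a library used the same fold and minimum. Markers and immediate-early classes (0, 1 to 2, 3 to 5, 6 or more UMIs in 1000) were read in cells thinned to 1000 UMIs, and levels from the cells' full counts. A gate needed at least 3 markers of its list. Of 17 lymphoid markers 14 are listed in the files (Trac, Trbc1 and Trbc2 are not).

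Doublets were not removed. An alternative removed the 98 cells with the highest Scrublet scores (scanpy 1.11.5). Python 3.11.15, numpy 2.4.6, scipy 1.17.1 and pandas 2.3.3 were used, and the calculations were tested on simulated data. Coordinates are those of GENCODE M21 (GRCm38, the assembly of mm10).

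Named genes are the 4 members, Cd163, Folr2, Timd4, Ccr2, Fos, Egr1 and Dusp1, up to 4 genes of each list with the widest ratio among those at least 2-fold apart, and the 5 genes most like each member. The members, lists and alternatives were chosen with earlier results of these data known.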

Additional observations from a re-analysis of the deposited data

Results flagged for a closer look

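Between cells with many and few immediate-early UMIs, Ccl12 differed in opposite directions in the libraries. The log2 ratio of its level in cells with 6 or more Fos, Egr1 and Dusp1 UMIs to that in cells with 0 to 2 was 0.75 in the knockout, -0.34 in wild-type lane 1 and -0.30 in wild-type lane 2. Without the cells that held most Ccl12 it was 0.69, -0.25 and -0.22. Neither library showed a steady order over the classes. In the knockout Ccl12 stood at 566 CPM with 0, 297 CPM with 1 to 2 and 600.3 CPM with 6 or more. In wild type it stood at 391 CPM with 0, 223 CPM with 6 to 8 and 436 CPM with 9 to 12. The difference between the libraries was not tested, since there is 1 library for each genotype.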

How the results depend on the processing

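Of 118 alternative values 65 moved by less than their counting interval (counts of genes by less than 1.5 times), 52 moved by more and 1, the share of Ccl12, changed sign beyond it. Without thinning the difference in the share of cells with Ccl12, knockout minus wild type, was -8.39 in place of 4.28 percentage points, that of Ccl8 -14.3 in place of -1.94 and that of Ccl2 11.0 in place of 17.6, and at 2000 UMIs that of Ccl7 was 30.1 in place of 26.2. The log2 ratio (knockout over wild type) kept its sign for each gene under each alternative choice of scaling, added CPM, cells or lane. At equal immediate-early classes, counted apart, the Ccl8 ratio turned from -0.20 to 0.65. For Ccl2 the ratio (2.14) was 1.95 with median-of-ratios scaling, 2.28 with a stricter cell filter and 1.79 in cells of 2000 to 4000 UMIs. It was 2.06 against lane 1 and 2.35 against lane 2. For Ccl7 (2.68) it was 2.49, 2.81, 2.27, 2.60 and 2.89 in that order, 2.62 with 10 CPM added and 2.40 in cells without Ccr2. For Ccl8 (-0.21) it was -0.40 with the other scaling, -0.079 with the stricter filter, -0.28 at matched depth and -0.83 without Ccr2. For Ccl12 (0.86) these were 0.67, 1.01, 0.72 and 0.50. Reading markers at full depth gave for Cd163 in the knockout 1.72 (Ccl2), 1.57 (Ccl7) and 1.29 (Ccl12), and in wild type 1.28, 1.47 and 1.84, with 1.82 for Ccl8. For Folr2 it gave 1.09, 1.20, 2.24 and 1.31 in the knockout (Ccl2, Ccl7, Ccl8, Ccl12) and 2.85 (Ccl8) and 2.05 (Ccl12) in wild type. For Timd4 it gave -0.37 (Ccl7) and 0.80 (Ccl8) in the knockout and 0.64 (Ccl8) and 0.21 (Ccl12) in wild type, and for Ccr2 in wild type -1.64 (Ccl8) and -0.85 (Ccl12). Within the macrophage gate the knockout differences of Ccl7 were 1.11 for Cd163 and 1.46 for Folr2, and that of Ccl8 for Timd4 was -0.026 in place of 0.039, a change of sign within its counting interval. At equal immediate-early classes other early genes gave 2.18 for Ccl2 and 3.01 for Ccl7. With 6 classes the ratios were 2.30, 2.41 and 0.94 for Ccl2, Ccl7 and Ccl12, and with 7 classes, added after the data were seen, 2.21 (Ccl7) and 1.18 (Ccl12). With no minimum on CPM 1224 genes in place of 550 were at least 2-fold higher than both lanes. The cause of these moves was not tested. Depth limits the knockout most, where 196 cells had under 1000 UMIs, and the Folr2 split, where few cells carry the marker. No paired analysis was possible because each genotype has 1 library.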
